A study of Mus musculus with 3 samples.

Results

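The immediate-early transcription factors described here are 10 genes, Egr1, Egr2, Egr3, Fos, Fosb, Jun, Junb, Ier2, Atf3 and Nr4a1, out of 23860 genes with a column in the single-cell counts of mouse liver non-parenchymal cells (NPCs). They were chosen by name, with knowledge of their levels in the cell types of both libraries, so that every level and ratio of theirs is a description and carries no test. The question was which members differed between cell types, Egr2 and Egr3 in Kupffer cells (KCs) against T cells in particular, and which differed between the libraries in all cell types alike. NPCs were freed from the liver with collagenase, captured with the BD Rhapsody system and sequenced as 2 libraries, each of which is 1 sample. The first, called the WT library here, comes from wild-type mice of the C57BL/6J background. Its diet is not settled. The paper describes normal chow for these cells, whereas the header names the library APAP0h. The sample titled MCD was matched to it only by elimination, since no label links them. The second, called the HFHC pool here, holds wild-type and Chi3l1-/- mice (Chil1-/- in the labels) on a high-fat, high-cholesterol diet mixed, and cells could not be split by genotype here. The labels spell the diet of its wild-type mice HCFC. The number and age of the mice behind each library are not given in the sources used here, and male mice were used in most experiments of the study, with no statement of sex for these cells in particular. With 1 library on each side, diet, genotype, isolation, capture and library cannot be told apart, and no p-value or standard error is given. Levels carry exact Poisson 95% intervals and shares of cells exact binomial ones, which cover counting error only.

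Immediate-early genes are transcribed within minutes of a stimulus and need no new protein for it, because the factors that act on their promoters, such as serum response factor (SRF) and cyclic AMP response element binding protein (CREB), are already in the cell. Fos and Fosb pair with Jun and Junb to form the transcription factor AP-1, Atf3 is a stress-induced factor of the same leucine zipper kind, Egr1, Egr2 and Egr3 are zinc finger factors, Nr4a1 is an orphan nuclear receptor, and Ier2 is a small nuclear protein. In T cells Egr2, Egr3 and Nr4a1 are known as genes switched on through the antigen receptor, in macrophages several members respond to bacterial products, and in many tissues Fos, Jun and Egr1 are known to be induced while the tissue is digested.

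The bases before the transcription start are shown for 4 members, Egr2 because the contrast of KCs and T cells turns on it, and Fos, Nr4a1 and Jun because each was higher in the HFHC pool in most classes of cells. They were read from RefSeq promoters of the build GRCm38.p6, in which 7 of the 10 members had an entry and Egr1, Egr3 and Ier2 had none. Each window covers the 250 bases before a start on the gene's own strand, 5' to 3', and overlaps 0 exons of the GENCODE annotation of that build. Capitals mark the letters TGACG on either strand (CGTCA on the strand shown), which are the core of the site bound by CREB, and the CArG box, the site bound by SRF. None of these matches overlap each other. The window of Egr2 is chr10:67537619-67537868 on the plus strand, before 1 of its 5 listed starts. Those of Fos (chr12:85473640-85473889, plus strand), Nr4a1 (chr15:101266596-101266845, plus strand) and Jun (chr4:95052223-95052472, minus strand) follow.
Egr2: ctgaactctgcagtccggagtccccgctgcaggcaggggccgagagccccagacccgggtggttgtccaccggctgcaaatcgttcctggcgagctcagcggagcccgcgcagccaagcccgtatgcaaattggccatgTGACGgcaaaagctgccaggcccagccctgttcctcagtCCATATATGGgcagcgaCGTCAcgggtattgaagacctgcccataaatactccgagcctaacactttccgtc
Fos: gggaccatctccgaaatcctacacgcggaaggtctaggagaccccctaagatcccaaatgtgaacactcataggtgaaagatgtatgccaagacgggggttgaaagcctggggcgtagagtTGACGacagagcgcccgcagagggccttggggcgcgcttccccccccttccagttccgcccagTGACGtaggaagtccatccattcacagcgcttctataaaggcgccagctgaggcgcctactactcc
Nr4a1: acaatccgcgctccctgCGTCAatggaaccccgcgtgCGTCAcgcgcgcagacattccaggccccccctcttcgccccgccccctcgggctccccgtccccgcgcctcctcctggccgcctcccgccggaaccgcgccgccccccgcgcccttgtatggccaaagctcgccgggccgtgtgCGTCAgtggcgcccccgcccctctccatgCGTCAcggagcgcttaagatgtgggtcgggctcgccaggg
Jun: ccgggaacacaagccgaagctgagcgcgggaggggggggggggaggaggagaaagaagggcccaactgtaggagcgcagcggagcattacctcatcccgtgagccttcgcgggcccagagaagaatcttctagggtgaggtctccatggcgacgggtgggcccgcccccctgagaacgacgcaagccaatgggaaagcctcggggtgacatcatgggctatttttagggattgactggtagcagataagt
In these windows Egr2 has a CArG box 72 bases before its start and TGACG at 111 and 55 bases, Fos has TGACG at 129 and 66 bases, and Nr4a1 has TGACG at 233, 213, 69 and 40 bases. The window of Jun holds neither motif. TGACG was found for 6 of the 7 members with a window in any of their windows, and for 19.8% of all 27025 genes with windows of the same length. A CArG box was found for 1 of the 7, Egr2, and for 1.62% of all these genes. These matches describe letters in this stretch alone.

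The values are counts of unique molecular identifiers (UMIs) for each gene in each cell. Cells with 200 to 4000 genes and at most 25% mitochondrial UMIs were kept, which left 23346 of 30734 cells in the WT library and 19625 of 21601 in the HFHC pool. The libraries shared 507 cell indices, which name a bead code and not a cell. Clusters were named from marker genes, and 14 classes had at least 50 cells in both libraries. Levels are given as CPM, the UMIs of a gene summed over a class and scaled to the total UMIs of that class. The markers of a class are the genes it was named by, so that their levels are no separate check of the name. In 13 of the 14 classes the summed level of a class's markers was highest in that class in both libraries. The exception was monocyte-derived macrophages (MoMFs), whose markers summed to 5356 CPM in WT MoMFs and 5655 CPM in WT monocytes. The lists of MoMFs and monocytes share Ccr2 and Cx3cr1. The class named plasma cell goes against its name in the WT library, where its 134 cells had 5293 CPM of T cell markers and 4539 CPM of plasma cell markers, against 2565 and 19272 CPM in 140 cells of the pool. Cells of the pool were deeper in all 14 classes, with a median of UMIs per cell 1.69 (cDC1) to 2.81 times (MoMFs) that of the WT library.

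The members were higher in the HFHC pool in nearly all classes of liver cells. The UMIs of each class were summed, scaled to CPM and set against each other as a log2 ratio with 1 UMI added to each sum. Of 140 pairs of a member and a class, 112 had at least 100 UMIs in both libraries together. In 94 of these the level was at least 2-fold higher in the pool, against 5.44% of all genes with enough UMIs in the same classes, and in 1 it was at least 2-fold lower, against 4.03%. That 1 was Egr3 in T cells, at -1.10, which stood short of 2-fold at -0.98 without T cell cluster 20 and at -0.999 with thinned cells. Without the class named plasma cell it was at least 2-fold higher in 88 of 106. The limit of 100 UMIs is on both libraries together, so that a pair with few WT UMIs can pass it through the pool alone. The same limit was used for all genes. The shares of all genes are the background of the same libraries, and nothing is read from the distance to them, since the members were chosen with such ratios known. With every cell thinned to 1000 UMIs the count was 90 of 112. No share of all genes is given for thinned cells or without the class named plasma cell. Those counts thus have no background of their own.

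KCs, the resident macrophages of the liver, had 9 of 10 members at least 2-fold higher in the pool, against 5.14% of all genes. Among the other phagocytes the count was 8 of 8 in MoMFs (6.09% of all genes), 6 of 9 in monocytes (3.24%), 4 of 5 in non-classical monocytes (5.21%, and 2 of 4 in cells with at most 10% mitochondrial UMIs) and 8 of 10 in neutrophils (8.23%). In MoMFs Jun and Junb came below 2-fold under some other settings. Several members passed the limit of 100 UMIs mainly through the pool. In MoMFs these were Egr1 (26 and 756 UMIs), Fosb (44 and 659), Ier2 (4 and 163), Atf3 (14 and 300) and Nr4a1 (20 and 325). In KCs they were Egr2 (33 and 177 UMIs) and Egr3 (29 and 107). Dendritic cells had 8 of 9 in cDC1 (3.48%), 7 of 8 in cDC2 (3.5%) and 7 of 7 in plasmacytoid dendritic cells (pDCs, 2.99%). T cells had 6 of 9 higher (6.02% of all genes) and 1 lower (3.08%), natural killer (NK) cells or type 1 innate lymphoid cells (ILC1) 7 of 7 higher (3.75%) and B cells 7 of 8 (3.91%). The class named plasma cell had 6 of 6 (7.04%), endothelial cells 7 of 8 (9.74%) and hepatocytes 4 of 8 (5.67%). Pairs with few WT UMIs were counted in other classes too. Examples were Egr1 (23 and 113 UMIs), Ier2 (24 and 147) and Nr4a1 (23 and 174) in pDCs. Another was Egr1 (26 and 857 UMIs) in the class named plasma cell. No member with at least 100 UMIs was at least 2-fold lower outside T cells, where the shares of all genes were 3.37% in KCs, 4.53% in MoMFs, 2.8% in monocytes, 1.98% in non-classical monocytes, 4.67% in neutrophils, 2.45% in cDC1, 2.7% in cDC2, 2.52% in pDCs, 2.38% in NK cells or ILC1, 2.43% in B cells, 9.12% in the class named plasma cell, 4.81% in endothelial cells and 7.97% in hepatocytes. Endothelial cells of the pool also carried more hepatocyte marker RNA, 0.812% of UMIs against 0.159% in the WT library, and the part of that RNA in the ratios of the members there was not tested.

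**Figure D1:**
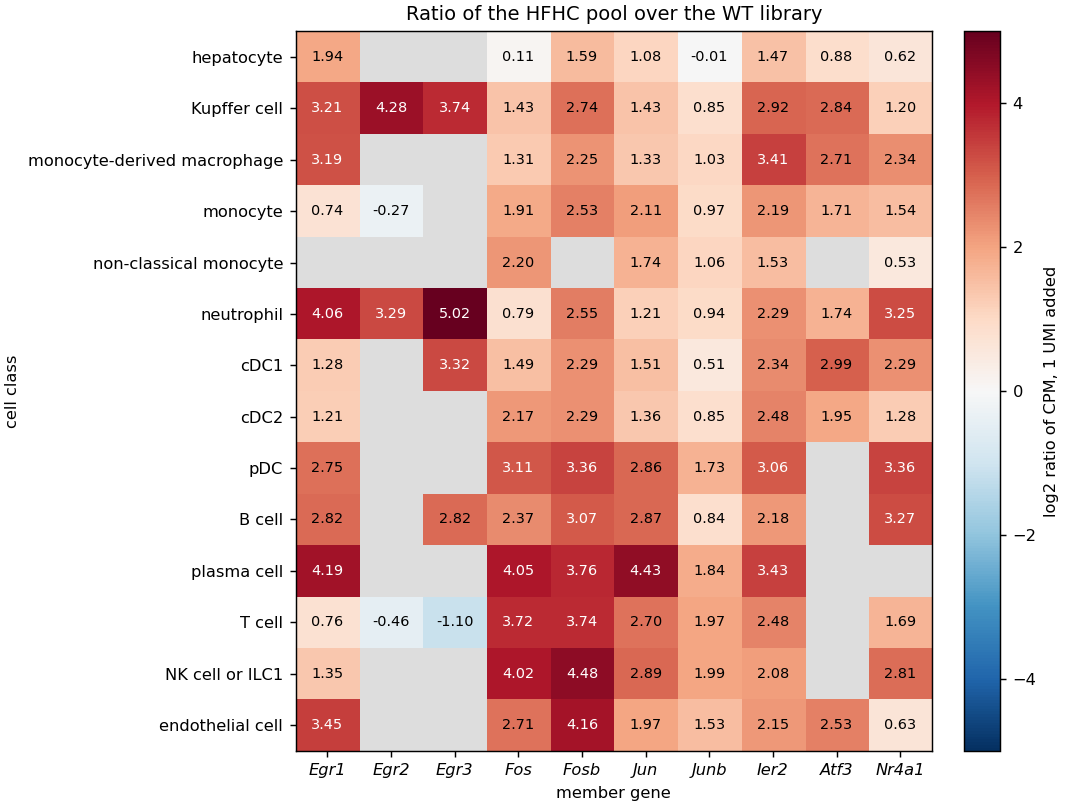
Log2 ratios, HFHC pool over WT library, for each of the 10 members in each of 14 classes, from CPM with 1 UMI added, red where the pool was higher, blue where it was lower and grey where both libraries together had fewer than 100 UMIs. Jun and Ier2 are above 1 in all 14 classes, whereas Egr2 and Egr3 stand at -0.46 and -1.10 in T cells and 4.28 and 3.74 in KCs.

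The median log2 ratio over the members with enough UMIs was 0.98 in hepatocytes, 1.53 in non-classical monocytes, 1.65 in cDC2, 1.71 in monocytes and 1.97 in T cells. It was 2.29 in cDC1, 2.29 in MoMFs, 2.34 in endothelial cells, 2.42 in neutrophils, 2.79 in KCs, 2.81 in NK cells or ILC1, 2.82 in B cells and 3.06 in pDCs. Over all genes with enough UMIs the median lay between -0.036 and 0.10 in these 13 classes, and at -0.27 in the class named plasma cell, where that of the members was 3.90. Hepatocytes, the class with the lowest median, were also the shallowest, with 534 and 1042 UMIs per cell in the middle of each library. Most WT hepatocytes lay in clusters 2 and 0, most hepatocytes of the pool in clusters 0 and 7.

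Jun, Ier2 and Fosb were at least 2-fold higher in the pool in every class in which they had enough UMIs. Under other settings Jun came below 2-fold in MoMFs (0.97 with cells thinned to 1000 UMIs) and within 1 cluster of neutrophils. Jun, which forms AP-1 with Fos or with itself, was at least 2-fold higher in 14 of 14 classes as reported, with log2 ratios from 1.08 in hepatocytes to 2.89 in NK cells or ILC1 and 4.43 in the class named plasma cell. Its level in the WT library and the pool was 50.4 and 107 CPM in hepatocytes, 99.6 and 649 CPM in T cells, 491 and 1320.3 CPM in KCs and 535 and 2096 CPM in endothelial cells. MoMFs led the WT library for Jun and endothelial cells the pool.
Ier2, a nuclear protein induced along with Fos, was higher in 14 of 14 classes, from 1.47 in hepatocytes to 3.41 in MoMFs and 3.43 in the class named plasma cell. The value in MoMFs (2.34 to 5.62) rested on 4 and 163 UMIs and reached the limit of 100 only through the pool. That in the class named plasma cell (2.81 to 4.30) rested on 17 and 337 UMIs. The level of Ier2 was 26.6 and 201 CPM in KCs, 27.9 and 156 CPM in T cells and 123 and 601 CPM in neutrophils, the class with the highest level in both libraries. When the classes of the WT library were ordered by Ier2, all 13 pairs of neighbours had overlapping intervals, so that no single step in the order stood clear of counting error.
Fosb, a partner of Jun that is close to Fos, was higher in 13 of 13 classes, from 1.59 in hepatocytes to 4.48 in NK cells or ILC1, where its level was 7.86 and 197 CPM. That largest ratio (3.65 to 5.87) rested on 8 and 419 UMIs. Fosb was at 63.01 and 421 CPM in KCs and 9.02 and 123 CPM in T cells (3.74), where the ratio ranged from 1.41 in cluster 16 to 4.39 in cluster 12. MoMFs had the highest level of Fosb in both libraries, 142 and 691 CPM.

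The ratios of Fos and Junb were largest in NK cells or ILC1, T cells and the class named plasma cell, and smallest in hepatocytes. The place of T cells in this order holds for the class as a whole and not for each of its clusters, since in T cell cluster 16 alone the ratio was 1.75 for Fos and 1.18 for Junb. NK cells or ILC1 also differed in make-up. At a higher clustering resolution 387 WT cells and 256 of the pool lay in a cluster led by Xcl1, Klrb1b and Ncr1. Another, led by Klra8, Klra4 and Gzma, held 177 and 281. The part of this make-up in the ratios of Fosb, Fos and Junb was not tested. Fos, the partner of Jun in AP-1, was at 43.1 and 569 CPM in T cells (log2 ratio 3.72, and 3.56 in cluster 8 and 3.81 in cluster 12) and 49.1 and 815 CPM in NK cells or ILC1 (4.02). In KCs it was at 565 and 1519 CPM (1.43) and in neutrophils, its highest class in both libraries, at 2444 and 4213 CPM (0.79). Hepatocytes did not differ beyond the counting interval, at 54.9 and 59.4 CPM (0.11, -0.079 to 0.31). Across the classes the level of Fos spanned 56.6-fold in the WT library, where T cells were lowest, and 70.9-fold in the pool, where hepatocytes were.
Junb, which can take the place of Jun in AP-1, had the smallest median of the 10 members, 0.997, and was at least 2-fold higher in 7 of 14 classes. Under other settings it came below 2-fold in MoMFs (1.03, down to 0.61) and non-classical monocytes (1.06, down to 0.82). In KCs, monocytes and neutrophils Junb reached 2-fold under some of them. Its ratio was largest in NK cells or ILC1 (1.99) and T cells (1.97), where its level was 291 and 1143 CPM. It was at 435 and 785 CPM in KCs (0.85), at 1983 and 3809 CPM in neutrophils (0.94) and at 81.3 and 80.8 CPM in hepatocytes (-0.013).

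Atf3, a leucine zipper factor induced by stress and by bacterial products, had its highest levels in myeloid cells in both libraries. It was at 114 and 381 CPM in neutrophils, 83.7 and 276 CPM in monocytes, 45.2 and 315 CPM in MoMFs and 18.2 and 129.9 CPM in KCs. T cells had 2.30 and 7.46 CPM and B cells 3.79 and 11.9 CPM, from 13 and 70 UMIs and 8 and 32 UMIs, under the limit of 100. Of the 8 classes with enough UMIs, 7 were at least 2-fold higher in the pool, by up to 2.99 in cDC1, and hepatocytes stood at 0.88. Under other settings the value in hepatocytes ranged from 0.11 to 1.87.

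Nr4a1 had its highest level in non-classical monocytes, the cells that are known to depend on it, in both libraries. It was at 1361 and 1968 CPM there, and the log2 ratio of 0.53 was the smallest of the 13 classes with enough UMIs. Neutrophils, at 155 and 1476 CPM (3.25), were next in the pool. In pDCs Nr4a1 was at 9.36 and 99.96 CPM (3.36), in B cells at 34.1 and 333 CPM (3.27), in T cells at 39.96 and 129 CPM (1.69) and in KCs at 109.6 and 251 CPM (1.20). Within T cell cluster 8 and KC cluster 100 its ratio was below 2-fold, at 0.75 and 0.98.
Egr1, the zinc finger factor often used as a mark of recent stimulation, was highest in cDC1 in the WT library (184 CPM) and in endothelial cells in the pool (1225 CPM, against 112 CPM in WT endothelial cells). It was at least 2-fold higher in the pool in 11 of 13 classes, and the exceptions were monocytes (0.74) and T cells (0.76, 55.9 and 94.8 CPM). Both depend on the choice of cells, since the ratio in monocytes was 1.20 with cells thinned to 1000 UMIs, and that in T cells was 0.13 in cluster 8 and 1.97 in cluster 12. With cells thinned to 1000 UMIs Egr1 also came below 2-fold in cDC2 (0.84), cDC1 (0.92) and NK cells or ILC1 (0.92). In neutrophils Egr1 was at 65.1 and 1089 CPM (4.06) and in KCs at 69.6 and 642 CPM (3.21). Neutrophils, like T cells, were made up differently in the 2 libraries. At the higher clustering resolution 1805 WT cells and 309 cells of the pool lay in a cluster led by Il1b, Ptgs2 and Cxcl2, and 1338 and 31 in one led by Retnlg, Mmp8 and Lcn2. Within the first cluster, a choice made after the values were seen, Jun came below 2-fold (log2 ratio 0.77). The log2 ratio there was 3.49 for Egr1, 2.74 for Nr4a1, 5.01 for Egr3 and 2.90 for Egr2.

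**Figure D2:**
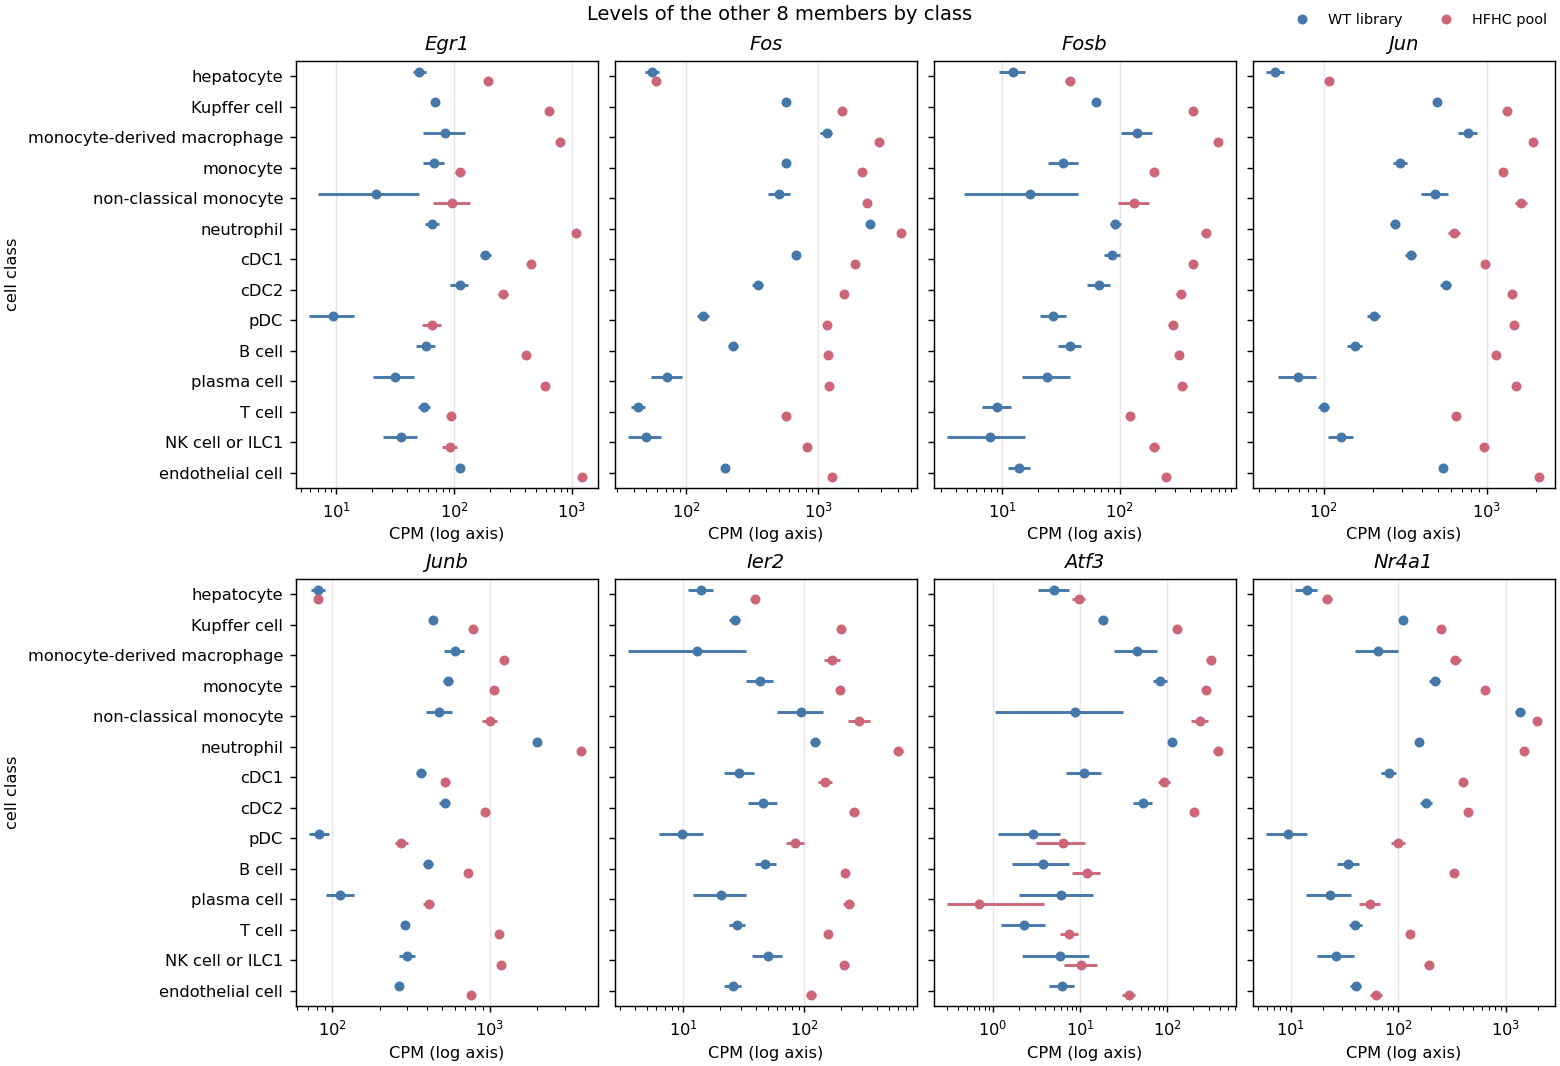
CPM on a log axis for Egr1, Fos, Fosb, Jun, Junb, Ier2, Atf3 and Nr4a1 in the 14 classes of the WT library (blue) and the HFHC pool (red), with lines for exact Poisson 95% intervals. Red points lie to the right of blue ones in nearly all rows, and the points of hepatocytes for Fos and Junb nearly coincide.

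Among classes with enough UMIs, Egr2 and Egr3 had ratios of both signs, as Junb did only through the value near 0 in hepatocytes. Both are known in T cells as brakes on activation, and Egr2 is known in macrophages as a factor of differentiation. In KCs Egr2 was at 2.08 CPM (95% interval 1.43 to 2.91) in the WT library and 41.4 CPM (35.6 to 48.02) in the pool, a log2 ratio of 4.28 (3.78 to 4.90). Egr3 in KCs was at 1.82 CPM (1.22 to 2.62) and 25.1 CPM (20.5 to 30.3), a log2 ratio of 3.74 (3.18 to 4.43). Of its 107 UMIs in KCs of the pool, 89 lay in 5 cells. In T cells both were lower in the pool, Egr2 within the counting interval. Egr2 there was at 11.8 CPM (9.18 to 15.05) and 8.63 CPM (6.85 to 10.7), a log2 ratio of -0.46 whose interval (-0.94 to 0.032) includes 0. Egr3 there was at 33.8 CPM (29.2 to 38.9) and 15.8 CPM (13.3 to 18.5), a log2 ratio of -1.10 (-1.42 to -0.78).

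In sums over each class, KCs were below T cells for both genes in the WT library and above them in the pool, for Egr3 by the UMIs of few cells. The log2 ratio of KCs over T cells for Egr2 was -2.49 (-3.16 to -1.89) in the WT library and 2.25 (1.88 to 2.66) in the pool. For Egr3 it was -4.17 (-4.83 to -3.64) and 0.67 (0.30 to 1.04), less than 2-fold in the pool. The direction for Egr3 in the pool depended on 5 cells. Without the KC that held the most Egr3, KCs of the pool stood at 15.96 CPM against 15.8 CPM in T cells, and without the 5 that held the most at 4.28 CPM, below T cells (-1.81 on the log2 scale), where WT KCs stood at 1.82 CPM. Cells were left out of KCs of the pool alone, which can only lower that side. T cells of the pool kept the 5 cells that held 67 of their 148 Egr3 UMIs. WT KCs kept the 5 that held 11 of 29. Without the 5 KCs of the pool, Egr2 in the pool was still higher in KCs, by 1.98. The ratio of the libraries was larger in KCs than in T cells by 4.75 for Egr2 and 4.84 for Egr3 on the log2 scale, a difference for which 1 library on each side allows no test. The value for Egr3 includes these 5 KCs of the pool and is smaller without them, at the 4.28 and 1.82 CPM given above for KCs.
Of the 10 members, 5 were at least 2-fold higher in KCs than in T cells of the WT library, against 19.1% of all genes, and 2, Egr2 and Egr3, were lower, against 22.1%. In the pool 6 were higher, against 15.3% of all genes, and 0 lower, against 24.4%. Fos stood higher in KCs by 3.71 in the WT library and 1.42 in the pool, Jun by 2.30 and 1.02, and Fosb by 2.78 and 1.77 on the log2 scale. Egr1 and Atf3 went the way of Egr2, from 0.31 to 2.76 and from 2.88 to 4.11. Nr4a1 went from 1.45 to 0.96, Junb from 0.58 to -0.54 and Ier2 from -0.077 to 0.36.

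**Figure D3:**
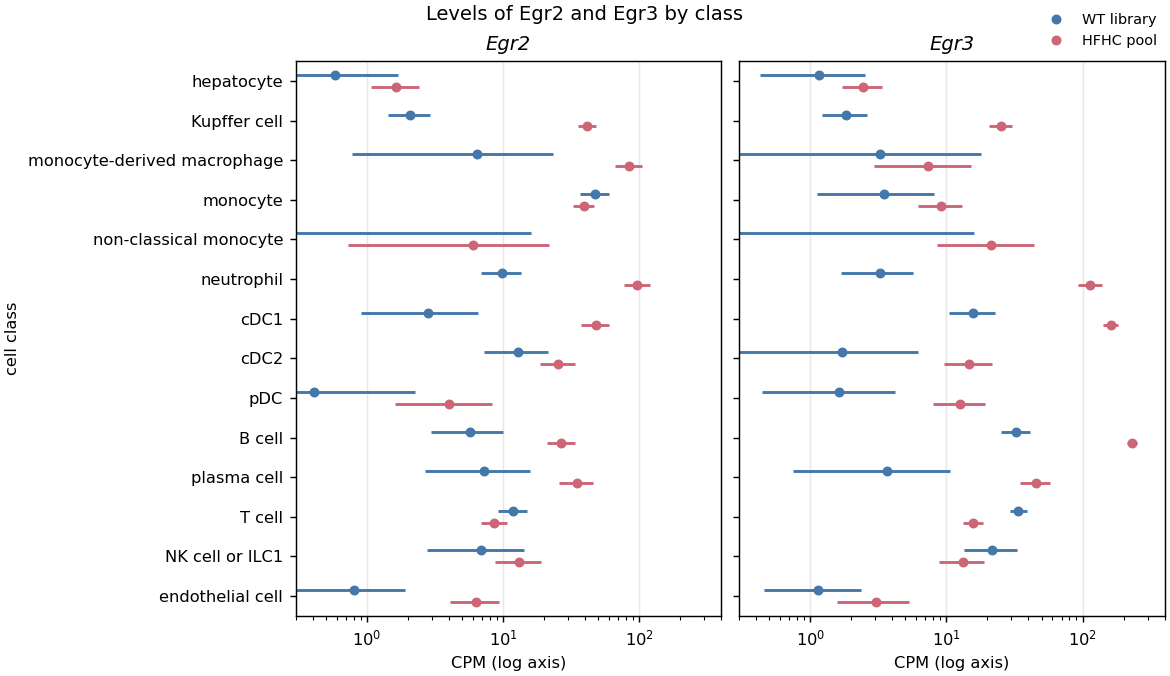
CPM on a log axis for Egr2 (left) and Egr3 (right) in the 14 classes of the WT library (blue) and the HFHC pool (red), with lines for exact Poisson 95% intervals and no point where no UMI was found. In KCs the 2 libraries are far apart for both genes, in T cells the intervals overlap for Egr2 and the pool is the lower one for Egr3.

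Other classes had more of either gene than KCs did. In the WT library monocytes led for Egr2 with 47.02 CPM, apart from cDC2 at 12.9 CPM, and from there down all neighbours in the order overlapped. Non-classical monocytes had 0 UMIs of 231447 (interval up to 15.9 CPM). In the pool neutrophils (96.97 CPM) and MoMFs (83.9 CPM) led with overlapping intervals, apart from cDC1 (47.9 CPM), KCs and monocytes (39.2 CPM). Between the libraries Egr2 was higher in the pool in neutrophils (9.77 and 96.97 CPM, 3.29) and had a ratio with an interval that includes 0 in monocytes (-0.27, -0.70 to 0.18), which stood at 0.46 with cells thinned to 1000 UMIs. In MoMFs Egr2 rested on 2 and 80 UMIs, in cDC1 on 5 and 74 UMIs and in B cells on 12 and 72 UMIs, each pair under the limit of 100.
For Egr3 the WT library was led by T cells (33.8 CPM), B cells (32.2 CPM), NK cells or ILC1 (21.6 CPM) and cDC1 (15.7 CPM), each overlapping the next. In the pool B cells led with 230.5 CPM, then came cDC1 with 161 CPM and neutrophils with 114 CPM, and each of these steps was larger than the intervals. The intervals take no account of few cells holding the UMIs. The top 5 cells held 121 of 249 UMIs in cDC1, 40 of 96 in neutrophils and 58 of 619 in B cells. The log2 ratio of Egr3 was 5.02 in neutrophils, 3.32 in cDC1 and 2.82 in B cells. T cells were the only class of the 5 with enough UMIs in which Egr3 was lower in the pool. In NK cells or ILC1 it rested on 22 and 28 UMIs, at 21.6 and 13.2 CPM.

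Egr2 and Egr3 were concentrated in few cells. The 177 UMIs of Egr2 in KCs of the pool came from 58 of 509 cells, with 32.8% of them in the 5 cells with the most. The 107 UMIs of Egr3 there came from 16 cells, with 83.2% in the top 5 and 39 in a single cell. In T cells 89 of 2895 WT cells held the 191 UMIs of Egr3 and 47 of 2592 cells of the pool held the 148. The Poisson intervals take no account of this unevenness and are too narrow where few cells hold the UMIs. Thinned to 1000 UMIs per cell, 0.139% of WT KCs (0.0379 to 0.355%) and 3.75% of KCs of the pool (2.24 to 5.86%) had a UMI of Egr2, against 0.709% and 11.4% unthinned, at median depths of 4454 and 8745 UMIs. Hepatocytes, the class with the lowest Egr2 level in the pool, had a thinned share of 0.141% there and 0 of 1343 cells (interval up to 0.274%) in the WT library, at median depths of 1042 and 534 UMIs before thinning. For Egr3 the thinned shares in KCs were 0.174% and 1.67%, and in T cells 2.27% and 1.04%.

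Clusters of the same class differed. Clustering left out the members and the genes of every pathway list described further below, the activation genes of T cells among them. Of KCs, 1920 of 3242 WT cells and 320 of 509 cells of the pool lay in cluster 100, led by C6, Cd163, Cd5l, Timd4 and Vsig4. Egr2 there was at 1.54 and 53.8 CPM and Egr3 at 1.11 and 33.1 CPM. In cluster 104 (330 and 103 cells), the other KC cluster with at least 50 cells in both libraries, Egr2 was at 3.85 and 3.33 CPM, and Egr3 was at 2.31 CPM in the WT library and had 0 UMIs in the pool (interval up to 6.15 CPM). Egr1 (60.1 and 285 CPM), Fos (451 and 1379 CPM), Jun (452 and 1065 CPM) and Atf3 (14.6 and 147 CPM) were higher in the pool in cluster 104 as well. Cluster 104 carried more RNA of other types. The mean log2 ratio to the other clusters was -0.11 for hepatocyte, -0.24 for monocyte and 0.75 for erythroid markers. In cluster 100 these were -3.09, -2.72 and -0.076. The part of this RNA in the levels of cluster 104 was not tested.
T cells were made up differently in the 2 libraries. Cluster 8, led by Tcrg-C2, Cxcr6, Tcrg-C1, Il2ra and Il2rb, held 1821 of 2895 WT T cells and 590 of 2592 T cells of the pool. The pool had 952 cells in cluster 12 (led by Tcf7 and Lef1), 654 in cluster 16 (led by Foxp3) and 297 in cluster 20 (led by Gzmk, Ccl5 and Cd8a), against 602, 133 and 3 cells of the WT library. In cluster 8 Egr3 was at 39.8 (33.8 to 46.7) CPM in the WT library and 7.33 (4.19 to 11.9) CPM in the pool, and Egr2 at 13.6 (10.2 to 17.9) and 2.75 (1.01 to 5.98) CPM. In cluster 12 Egr3 was at 16.9 and 16.5 CPM and Egr2 at 7.26 and 9.18 CPM, and in cluster 16 Egr3 was at 23.1 and 29.2 CPM and Egr2 at 7.71 and 10.4 CPM, all with overlapping intervals. Cluster 18 (336 and 99 cells) had 29.7 (14.2 to 54.6) CPM of Egr3 in the WT library and 0 UMIs in the pool (interval up to 16.7 CPM), and 1 UMI of Egr2 in each library. Of these 4 clusters, cluster 8 was the one in which the intervals of the libraries lay apart. Set against single T cell clusters, choices made after the values were seen, the log2 ratio of KCs over T cells in the pool was 3.70 for Egr2 and 1.70 for Egr3 with cluster 8, 2.14 and 0.59 with cluster 12, and 1.94 and -0.23 with cluster 16. KCs of the pool were thus above cluster 16 for Egr2 and below it, with overlapping intervals, for Egr3, and KCs of cluster 104, at the levels given above, were below the T cells of the pool as a whole for both genes, for Egr2 with overlapping intervals.

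**Figure D4:**
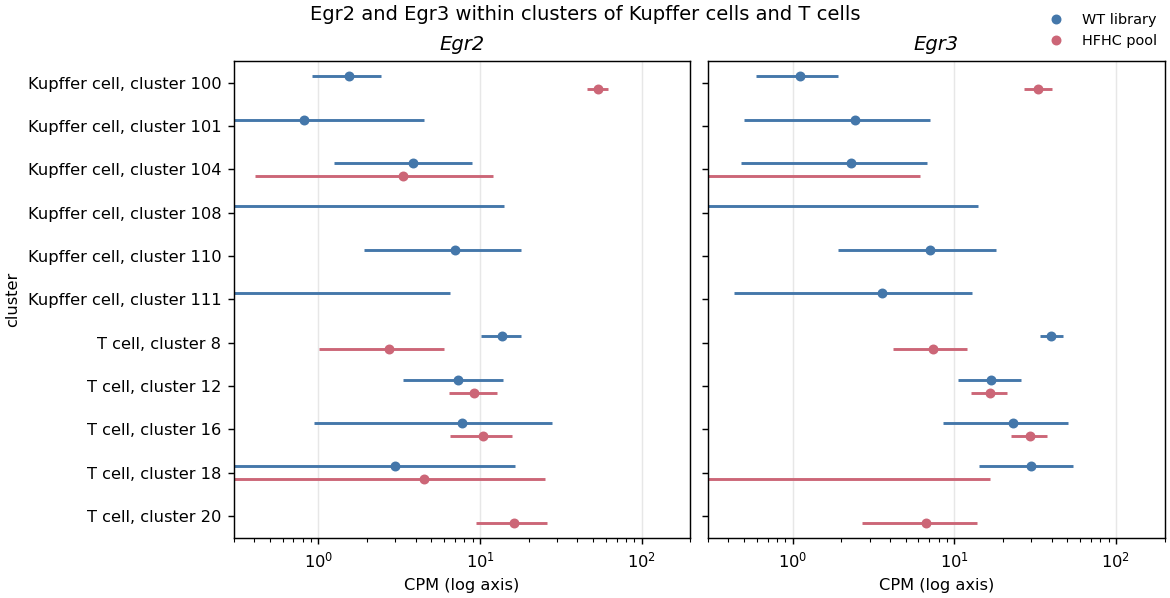
CPM on a log axis for Egr2 (left) and Egr3 (right) in clusters of KCs and T cells with at least 50 cells of a library, for the WT library (blue) and the HFHC pool (red), with lines for exact Poisson 95% intervals and no point where no UMI was found. The 2 libraries are far apart in KC cluster 100 and, in the opposite direction, in T cell cluster 8.

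Markers of other cell types were measured in KCs and T cells beside these levels. The 10 T cell markers, all with UMIs, summed to 133 CPM in WT KCs and 139.5 CPM in KCs of the pool, against 8300.3 and 8298 CPM in T cells. The 11 KC markers, all with UMIs, summed to 258 and 111 CPM in T cells, against 22302 and 18259 CPM in KCs. In KCs the 11 neutrophil markers summed to 695 CPM, with Camp at 0, and 264 CPM, with Camp and Ly6g at 0. The 9 monocyte markers, all with UMIs, summed to 199 and 687 CPM in KCs, against 8129 and 7785 CPM in monocytes. The 9 markers of MoMFs, all with UMIs, summed to 3712 and 4243 CPM in KCs, against 5356 and 6929.5 CPM in MoMFs. That list holds Cd68 and Adgre1, which the paper names as markers of KCs too. Its sum in KCs is thus no measure of MoMFs among them. The part of any of these cell types in the levels of Egr2 and Egr3 in KCs was not tested.

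In some classes of the pool several members were often found in the same cell. The share of such cells rises with the level of each member by itself. The share that the separate levels would give was not computed. Thinning to 1000 UMIs left out shallower cells, 363 WT KCs and 29 KCs of the pool, 385 and 8 T cells, and 1533 and 3 neutrophils, and most in hepatocytes, 5487 of 6830 WT cells and 4601 of 9564 cells of the pool. UMIs of at least 5 of the 10 members were found in 1.08% (0.733 to 1.52%) of WT KCs and 16.7% (13.4 to 20.3%) of KCs of the pool. Neutrophils of the pool had the highest share, 38.6% (33.4 to 43.9%), against 1.70% (1.14 to 2.43%) in the WT library. In T cells the shares were 0.0797% (0.00965 to 0.288%) and 1.63% (1.17 to 2.19%), and in hepatocytes 0.0745% (0.00189 to 0.414%) and 0.0604% (0.0125 to 0.177%), with overlapping intervals. KCs of the pool were uneven, since 25.6% (21.8 to 29.8%) of them had no UMI of any member at this depth, against 35.6% (33.9 to 37.4%) of WT KCs, whereas in T cells the share with none was 22.1% (20.5 to 23.7%) in the pool and 63.1% (61.1 to 64.96%) in the WT library.

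**Figure D5:**
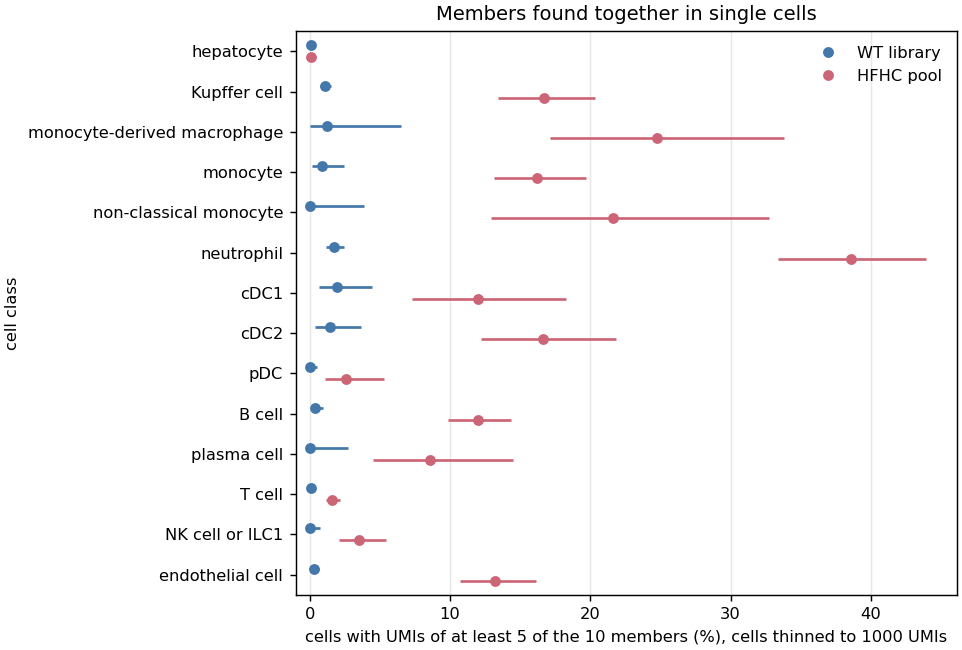
The percent of cells, thinned to 1000 UMIs each, with UMIs of at least 5 of the 10 members in the 14 classes of the WT library (blue) and the HFHC pool (red), with lines for exact binomial 95% intervals. The highest share is 1.93% (cDC1) in the WT library and 38.6% (neutrophils) in the pool.

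Pairs of members were counted in the same thinned cells and set against the number that the product of their separate shares gives, for pairs in which the product gives at least 5 cells. Pairs of other genes were not counted. The counts thus have no background, and nothing particular to the members is read from them. In KCs 22 of 22 pairs of the WT library and 31 of 31 pairs of the pool shared more cells than the product gives, by 1.33 (Jun and Ier2) to 2.36 times (Egr1 and Fosb) in the pool. In T cells it was 9 of 11 pairs and 23 of 28 pairs, from 0.790 (Egr1 and Junb) to 1.82 times (Fos and Jun) in the WT library and from 0.462 (Egr3 and Jun) to 2.39 times (Fos and Fosb) in the pool. Egr2 and Egr3, for which the product gives under 1 cell, shared 14 WT T cells and 1 T cell of the pool, and 1 WT KC and 6 KCs of the pool.

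Across the 28 points of 14 classes in 2 libraries, Fos varied most like Fosb (Pearson's r of log2(CPM + 10) = 0.87), Jun (0.85) and Junb (0.83). Egr3 was least like Atf3 (0.14) and Jun (0.26), and stood at 0.55 with Egr2. The points of 1 library share its depth and handling, so that these values are descriptions. Of 10808 other genes with at least 500 UMIs, Camta2 (0.88), 9530068E07Rik (0.85), Ppp1r15a (0.84), Gnb2 (0.83) and Usf1 (0.80) were most like the mean of the members. Gadd45b (0.70), Tnf (0.70) and Ints12 (0.69) were most like Egr2, and Usp53 (0.71), Cnot2 (0.70) and Lmbr1l (0.66) most like Egr3.

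Genes of the same pathway were read from lists, each counted over the classes in which its genes had enough UMIs. Of the factors that act on the members, SRF, the ternary complex factors and the CREB family, 5 of 77 measurements (6.49%) were at least 2-fold higher in the pool and 1 lower, against 5.44% and 4.03% of all genes in these classes. Creb1, which encodes CREB, had log2 ratios of 0.16 in KCs and 0.10 in T cells, Atf1, a factor of the same family, of -0.014 and 0.027, and Elk3, a ternary complex factor, of 0.48 and 0.18.
Of other AP-1 and small Maf factors, 7 of 59 measurements (11.9%) were higher and 7 lower (5.44% and 4.03% of all genes). Jdp2, which represses AP-1, was at 435 and 55.5 CPM in KCs (-2.97), the opposite direction to the members, and at 16.4 and 12.8 CPM in T cells (-0.37). Fosl2, a relative of Fos, was lower in KCs of the pool (139.9 and 59.2 CPM, -1.24) and higher in T cells (16.8 and 66.3 CPM, 1.97). Jund, a relative of Jun, stood at 0.56 in KCs, 0.82 in T cells and -0.71 in hepatocytes.
Of the relatives of EGR and NR4A factors and the NAB co-repressors, 12 of 27 measurements (44.4%) were higher and 0 lower (5.44% and 4.03% of all genes). Nr4a2, a relative of Nr4a1, was at 2.12 and 87.5 CPM in T cells (5.25) and 3.96 and 11.2 CPM in KCs (1.51). Nab2, a co-repressor that binds EGR factors, was at 29.6 and 82.9 CPM in KCs (1.49) and 36.96 and 60.1 CPM in T cells (0.70), and Nab1 stood at 0.56 and 0.76.

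Of other immediate-early genes, 84 of 216 measurements (38.9%) were at least 2-fold higher in the pool and 7 lower (5.44% and 4.03% of all genes). Zfp36, whose protein promotes decay of inflammatory transcripts, had log2 ratios of 0.46 in KCs and 1.15 in T cells, and its relative Zfp36l1 of 0.17 and 0.95. Rhob, a small GTPase, was at 879 and 1553 CPM in KCs (0.82), 72.5 and 218 CPM in T cells (1.59) and 771 and 558 CPM in neutrophils (-0.46).
Of MAP kinase phosphatases and Sprouty genes, which damp the kinases upstream of the members, 14 of 68 measurements (20.6%) were higher and 6 lower (5.44% and 4.03% of all genes). Dusp2 had the signs of Egr2 and Egr3 in both classes, at 31.9 and 106 CPM in KCs (1.73) and 1284 and 397 CPM in T cells (-1.69). Dusp1 stood at 0.034 in KCs and 1.43 in T cells, and Dusp6 at 0.45 and -0.81.
Of 8 activation genes of T cells, 4 were at least 2-fold higher and 1 lower in T cells of the pool, against 6.02% and 3.08% of all genes there. Cd69, an early surface mark of activation, was at 167 and 228 CPM there (0.45), Nfatc1, a factor activated by calcium, stood at -0.042 and Cblb, a ubiquitin ligase, at 0.40. These, the genes of the list with the most UMIs, were under 2-fold, so the calls lay in its other genes. Of these others, Tnfrsf4, Cd5 and Ctla4 were among the genes leading T cell cluster 16 (133 WT cells and 654 of the pool). Il2ra was among those leading cluster 8 (1821 and 590 cells). The part of this make-up in the count was not tested. Over all classes 12 of 41 measurements of this list (29.3%) were higher and 1 lower (5.44% and 4.03% of all genes).
Of heat-shock genes, 36 of 117 measurements (30.8%) were higher and 0 lower (5.44% and 4.03% of all genes). Hspa8, a constitutive chaperone, stood at 0.51 in KCs and 0.64 in T cells, Hsp90aa1 at 0.20 and 0.61, and Dnaja1 at 0.45 and 0.37. None of these, named for having the most UMIs, reached 2-fold in either class. Of the 9 heat-shock genes, 3 were at least 2-fold higher in KCs and 4 in T cells, against 5.14% and 6.02% of all genes. The part of tissue handling in the levels of the members was not tested.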

How the data were processed

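Single-cell counts of mouse liver NPCs were used as deposited. The authors made these UMI counts with the BD Rhapsody WTA Analysis Pipeline 1.10.1, per the file headers, which corrects UMIs by recursive substitution errors, on GRCm38, and the submitters' processing notes also name Seurat. 1 further sample held sample tags and was not used. Cells with 200 to 4000 genes and at most 25% mitochondrial UMIs were kept and clustered with Seurat 5.3.0 on 4000 variable genes (30 components, resolution 0.8, and 0.5 for macrophages and monocytes). The members and the genes of every pathway list were left out of these genes, and clusters were named from marker lists. The rule that sets mixed clusters aside was made after the clusters were seen. Scrublet (scanpy 1.11.5) called 8.17% and 1.997% of cells doublets, which were kept and left out in an alternative. Left out were clusters that could not be named (245 and 2948 cells) or were mixed (139 and 29), and classes under 50 cells in a library. UMIs were summed per class, since cells are not replicates, and the ratio code was tested on simulated data. The members and lists were chosen with earlier results of these data known. Named genes were all members and the 3 genes with the most UMIs of each other list, and those most like the members, Egr2 and Egr3. The libraries held 53720863 (WT) and 71981673 UMIs (HFHC), and intervals cover counting error only. The limit of 100 UMIs, the cell filter, the clustering, the scaling, the depth and the classes were varied.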

Additional observations from a re-analysis of the deposited data

Results flagged for a closer look

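Egr3 was lower in the HFHC pool than in the WT library in 1 class and higher in others. Its log2 ratio was -1.10 in T cells, from 191 and 148 UMIs, and 5.02 in neutrophils, from 12 and 96 UMIs, with 3.26 CPM (95% interval 1.68 to 5.69) in WT neutrophils and 114 CPM (91.95 to 139) in those of the pool. Each side of each class is 1 library, so that the difference between the classes was not tested. The UMIs of Egr3 came from 11 of 3240 WT neutrophils and from 38 of 348 neutrophils of the pool, with at most 18 UMIs in a single cell of the pool.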

How the results depend on the processing

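Over all classes, the count of members at least 2-fold higher in the HFHC pool stayed between 86 and 95 under the 10 other settings listed for it (94 of 112 as reported). The number of pairs with enough UMIs also changed with the setting, so that these counts are not all out of 112. No share of all genes is given beside them. Of 138 counts per class and setting, 137 were within 1.5 times the reported one. The exception was non-classical monocytes, with 2 of 4 when cells with more than 10% mitochondrial UMIs were left out. Of 1169 single ratios under other settings, 995 lay within the reported counting interval, 169 lay outside it with the same sign and 5 lay outside it with the opposite sign. Those were Egr2 in monocytes at 0.46 with cells thinned to 1000 UMIs, and Junb in hepatocytes at 0.16 to 0.24 without doublets, with classes from each cell's own markers (with and without the filter on cells) or with the mean of the cells' CPM. The sign also differed within the interval in 2 cases, Egr2 in monocytes and Fos in hepatocytes. For a ratio reported as at least 2-fold it differed in 0 of the 1169, which leave out ratios under 100 UMIs. One left out was Egr3 in T cells of cluster 16, from 6 and 62 UMIs. It was higher in the pool there, at 23.1 and 29.2 CPM with overlapping intervals. KCs of cluster 104 alone, where Egr2 was slightly lower in the pool, were not among the settings. Of the ratios reported as at least 2-fold higher, 10 pairs of a member and a class came below 2-fold under some setting (log2 ratio down to 0.61), which were Egr1 in cDC1, cDC2 and NK cells or ILC1, Fos in monocytes, Jun in MoMFs and neutrophils, Junb in MoMFs and non-classical monocytes, and Nr4a1 in KCs and T cells. 8 other pairs reached 2-fold higher under some setting. They were Atf3 and Nr4a1 in hepatocytes, Egr1 in T cells and monocytes, Fos in neutrophils, and Junb in KCs, monocytes and neutrophils. Egr3 in T cells came out of its 2-fold lower range under 2 settings. For KCs over T cells the settings listed at the start gave log2 ratios of -3.09 to -2.21 (WT library) and 1.73 to 2.59 (pool) for Egr2, and of -4.74 to -3.88 and 0.26 to 1.01 for Egr3. The values outside the reported interval in the pool were 1.73 for Egr2 with classes from each cell's own markers, 1.77 for Egr2 with the mean of the cells' CPM, and 0.26 for Egr3 with classes from each cell's own markers and no filter on cells. Among settings chosen after seeing the data, T cells of cluster 8 alone gave 3.70 for Egr2 and 1.70 for Egr3 in the pool, T cells of cluster 12 alone gave -3.23 for Egr3 in the WT library, and KCs of cluster 100 alone gave 1.07 for Egr3 in the pool. For Egr3 in the pool, T cells of cluster 16 alone gave -0.23. KCs without the cell or the 5 cells that held the most Egr3, with no T cell left out, gave 0.029 and -1.81. The direction was thus kept or turned by the choice of cells. The cause was not tested. With genes of at least 20 UMIs counted, the share of all genes at least 2-fold higher was 7.92% in KCs and 8.75% in T cells, and 4.79% to 13% over the 14 classes. The class named plasma cell had fewer than 50 WT cells when classes were taken from each cell's own markers. No paired analysis was possible because each group is 1 library. Depth limits Egr2 and Egr3 most, with fewer than 100 UMIs in 10 and 9 of the 14 classes.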
